A study of Macaca mulatta with 102 samples.

Results

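A set of 32 genes known from monocytes and granulocytes was followed in T cells that carry CD3, isolated by flow cytometry from the blood of rhesus macaques and measured on Affymetrix rhesus arrays. A gene counted as measured when the platform annotation pairs a probe set with that gene and no other. By this rule 31 genes had 58 probe sets, among 14132 genes with 24956 such probe sets in the table, and SPI1, a transcription factor of myeloid cells, is not analysed here. Each gene was read from its probe set with the highest mean. For all 31 genes that probe set passed the filter on low values, which asked for 5.21 or more (the median over the whole table) on 3 or more arrays. Some passed through few arrays: MMP8 reached that level in 5 of 101 arrays, ORM1 and S100A12 in 6 and FPR1 in 12, so for these genes passing the filter already rested on the arrays in which they were high.

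The macaques were healthy and not transplanted (Healthy.Control, 45 animals), or had received a transplant of hematopoietic cells (56 arrays). Autologous recipients, given their own cells, formed Auto.D14 (3 arrays, day 14), Auto.D36 (4 arrays, days 30 to 36) and Auto.D100 (4 arrays, day 100). The other recipients were given donor cells, and their groups differ in what was used against graft-versus-host disease. NoRx.F had no such treatment (4 arrays, days 6 to 12). Siro.F had sirolimus, an inhibitor of mTOR (4 arrays, days 12 to 24). Tacrolimus, a calcineurin inhibitor, with methotrexate gave Tac.Mtx.D14 (3 arrays, day 14) and Tac.Mtx.F (3 arrays, days 26 to 67). Belatacept, which blocks CD28 costimulation, was combined with sirolimus in Bela.Siro.D14 (3 arrays, day 14), Bela.Siro.D30 (2 arrays, day 30) and Bela.Siro.F (7 arrays, days 26 to 105). The antibody KY1005 binds OX40 ligand, a costimulatory protein, and was used alone in KY1005.D14 (2 arrays, days 14 to 16) and KY1005.F (3 arrays, days 16 to 23). Together with sirolimus it formed KY1005.Siro.D14 (5 arrays, day 14), KY1005.Siro.D28 (5 arrays, day 28) and KY1005.Siro.F (4 arrays, days 97 to 106). The labels do not say what the letter F stands for. Each array within a group came from another animal, named here by its number (R.219), and 15 animals gave more than 1 array after transplant.

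Monocytes and neutrophils are the circulating phagocytes of blood, and after a transplant they are rebuilt from the graft before T cells are. They share a large set of abundant transcripts, such as those of the calcium-binding alarmins S100A8 and S100A9, pattern receptors that sense microbes, the oxidase that makes superoxide, and enzymes stored in granules. T cells are known to make little of most of them, although NCF4 and CTSS are also transcribed in lymphocytes.

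The number of arrays limits the precision, and array medians lay between 5.13 and 5.35. Of 16 core T cell genes listed 9 were measured, none of them with a healthy mean under 5.21. The mean of these 9 genes, relative to the healthy mean, ran from -0.42 to 0.32 in healthy arrays. After transplant it lay below that range in R.219 of KY1005.Siro.F (-0.68), R.202 of Auto.D14 (-0.48) and R.221 of KY1005.Siro.D14 (-0.43). The actin control probe sets at the 3' end exceeded those at the 5' end, a sign of shortened RNA, by over 2.5 on the log2 scale in 6 arrays, those of R.201 and R.202 in Auto.D14 and of 4 healthy animals. In bulk samples, fewer cells of a type and less RNA per cell cannot be told apart. All differences in this text are log2 differences ± SE from 1 fit of all groups with the labelled batch (6 batches), where 1 means 2-fold, so they can depart from the difference of the group means. A gene is said to rise or fall where its p value, adjusted over 31710 probe sets, was under 0.05.

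Healthy T cell samples already differed in these genes, and a core of them went up and down together. S100A9 ranged from 3.86 to 8.69 across the 45 healthy animals (median 6.16), S100A8 from 4.73 to 9.02, VCAN from 3.74 to 8.22 and LYZ from 4.97 to 9.96. Other members hardly moved: S100A12 ran from 2.98 to 3.98 and MMP8 from 2.90 to 4.15. For 10 of the 31 genes the healthy mean lay under 5.21, namely CSF3R, CSTA, FPR1, MMP8, MMP9, ORM1, S100A12, TLR2, TLR4 and TREM1, and for these the size of a change is uncertain.

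Across the healthy animals 10 of the other 30 genes rose with S100A9, where 0.391% of all probe sets did. S100A8, the partner of S100A9 in calprotectin, followed it most closely of the 31709 other probe sets (Pearson's r = 0.90, Spearman's rho = 0.88, permutation p = 1e-05 for both, the smallest that 100000 resamples can give). The next was VCAN, a proteoglycan abundant in classical monocytes (r = 0.84, rho = 0.84, permutation p = 1e-05). CAMP, the cathelicidin peptide gene of granules, had r = 0.79, CSTA, a cysteine protease inhibitor, 0.74, FCN1, a monocyte lectin, 0.72 and CD14, the lipopolysaccharide co-receptor, 0.70. CSF3R, LYZ, CYBB and TLR2 completed the 10, with r of 0.67, 0.66, 0.63 and 0.61. Spearman's rho of these 8 genes lay between 0.57 (CYBB) and 0.79 (CAMP), and the permutation p was at most 2e-05 for r and at most 0.0001 for rho. All 10 relations passed the adjustment over all probe sets (adjusted p of at most 0.0177 in limma), and r stayed above 0.5 for the same 10 genes with batch means subtracted and without the 2 animals farthest from the median of S100A9 (0.88 for S100A8, 0.82 for VCAN and 0.55 to 0.76 for the other 8). The remaining 20 genes did not pass it, among them MMP8 (r = -0.09, rho = -0.10, permutation p = 0.571), CD68 (r = -0.04) and CD33 (r = -0.02). Of the genes outside the list, PLBD1, QPCT and C5AR1 were among those most like S100A9, with r of 0.82, 0.81 and 0.77 over the 45 animals.

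After transplant the genes of this set were mostly higher than in healthy animals, but how many rose differed widely between regimens and days. The 15 comparisons share the same healthy arrays and are given side by side. Of the 31 genes 4 rose and 3 fell in NoRx.F, where 13.5% and 14% of all probe sets were called higher and lower. In Siro.F 1 rose and none fell (4.24% and 4.66% of all probe sets). In Tac.Mtx.F 3 rose and none fell (6.9% and 7.36%), and in Bela.Siro.F 7 rose and none fell (5.23% and 4.77%). In NoRx.F, Siro.F and Tac.Mtx.F the share of members called was close to that of all probe sets.

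At day 14, 3 genes rose in Bela.Siro.D14 (1.64% of all probe sets were called higher and 1.04% lower) and 4 rose in KY1005.Siro.D14 (1.57% and 2.57%), with none falling in either. KY1005.F had 3 that rose and none that fell (1.72% and 1.56%). In KY1005.Siro.F 20 of the 31 rose and none fell, where 4.58% of all probe sets were called higher and 2.26% lower. The median difference over the 31 genes was 2.01 there, beside -0.05 over all probe sets. It was 0.61 in KY1005.Siro.D14, 0.54 in Bela.Siro.F and between -0.22 and 0.38 in the other groups after transplant.

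Among autologous recipients 1 gene rose in Auto.D14 (8.41% of all probe sets were called higher and 11% lower), and 3 rose and 1 fell in Auto.D36 (5.13% and 4.13%). In Auto.D100 limma called none of the 31 (1.22% and 1.26%), with 1 gene, CD33, lower at an unadjusted p under 0.05, and 7 of the 31 differences were above 0. No gene passed in Tac.Mtx.D14 (0.763% and 0.117%), Bela.Siro.D30 (0.782% and 0.36%), KY1005.D14 (0.123% and 0.0788%) and KY1005.Siro.D28 (6.94% and 5.16%) either. At an unadjusted p under 0.05 limma gave 5 higher genes in Tac.Mtx.D14, 3 in Bela.Siro.D30, none in KY1005.D14 and 2 in KY1005.Siro.D28, and 0, 0, 1 and 1 lower ones. Groups of 2 and 3 arrays leave wide intervals, so a gene that missed the threshold is not shown to be at its healthy level.

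**Figure D1:**
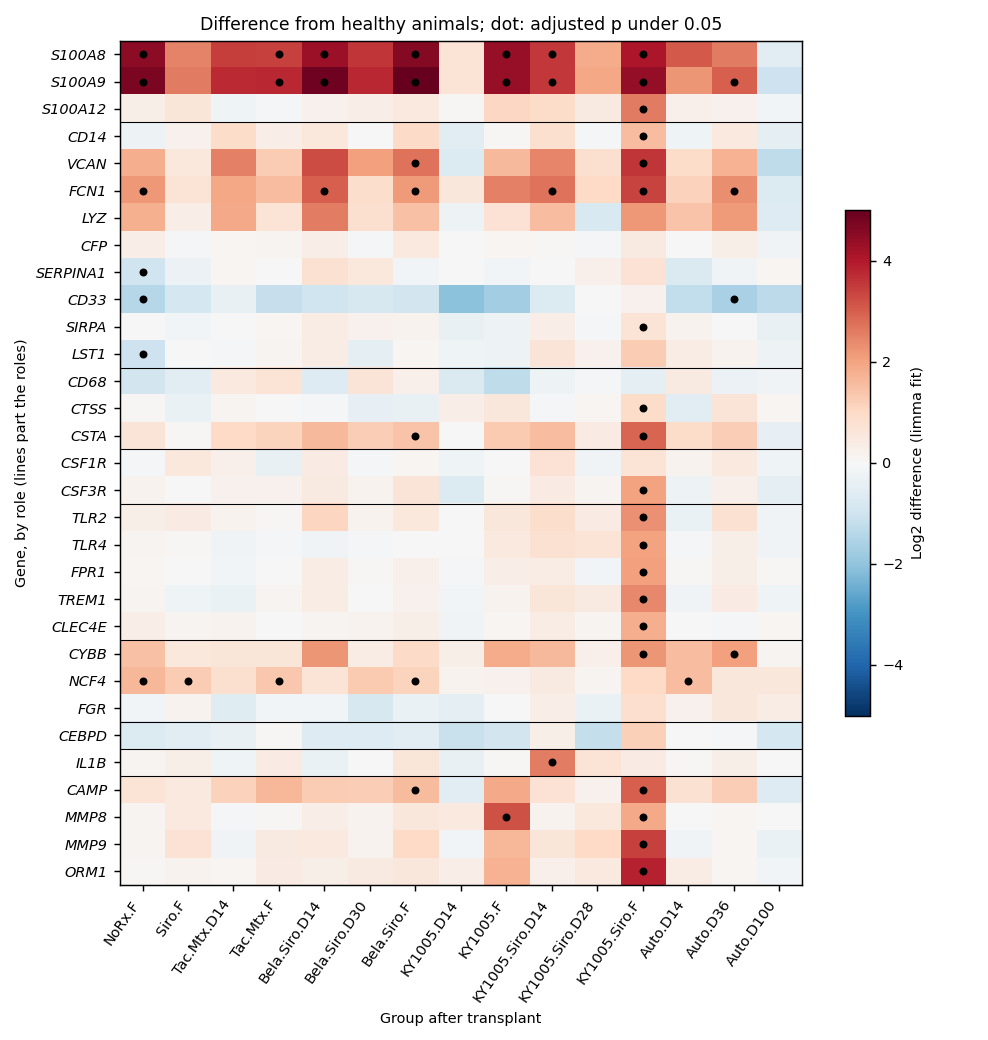
Log2 difference from healthy animals (colour) of the 31 measured genes (rows, by role) in the 15 groups after transplant (columns), from the fit with batch, with a dot where the adjusted p was under 0.05. KY1005.Siro.F carries 20 dots, and S100A8 and S100A9 carry dots in 7 and 8 groups.

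S100A9 and S100A8, which together form calprotectin, were the members with the most calls: S100A9 rose in 8 and S100A8 in 7 of the 15 groups. In NoRx.F S100A9 stood at 8.14, 9.64, 13.05 and 14.10 (R.51, R.53, R.50 and R.52), against 6.25 ± 1.19 (SD, n = 45) in healthy animals. Of these 4 arrays 3 lay above every healthy array, whose highest value was 8.69. The difference was 4.73 ± 1.00 (adjusted p = 0.000107), and that of S100A8 was 4.48 ± 0.97 (adjusted p = 0.000157), with S100A8 at 8.26, 10.10, 13.62 and 14.31. Both calls held without each of the 4 arrays in turn.

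In recipients of belatacept with sirolimus both genes rose in Bela.Siro.D14 and Bela.Siro.F. S100A9 read 7.59, 11.84 and 12.96 in Bela.Siro.D14 (R.49, R.38 and R.42), a rise of 4.88 ± 1.08 (adjusted p = 0.00538). Its lowest value in Bela.Siro.F was 8.73, the median 11.27 and the highest 13.85 (R.66), so the group did not overlap the healthy animals. There the rise was 5.01 ± 0.79 (adjusted p = 3.03e-06) for S100A9 and 4.59 ± 0.77 (adjusted p = 1.11e-05) for S100A8, whose 7 arrays ran from 9.10 to 14.00 with a median of 11.35. At day 14 S100A8 was 7.75, 12.19 and 13.03 and rose by 4.29 ± 1.05 (adjusted p = 0.0128). The day 14 calls ended without R.38 or without R.42, while those of Bela.Siro.F held without each of its 7 arrays. In Bela.Siro.D30, with 2 arrays, S100A9 was 7.58 (R.38) and 11.78 (R.42), and its difference of 3.77 ± 1.29 missed the threshold (adjusted p = 0.144).

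Tacrolimus with methotrexate gave narrower groups. S100A9 was 8.83, 9.63 and 10.48 in Tac.Mtx.D14 and 9.003, 9.59 and 10.47 in Tac.Mtx.F, each array above all healthy ones. The differences were alike in size, 3.73 ± 1.08 (adjusted p = 0.0704) and 3.77 ± 1.08 (adjusted p = 0.012), and only the second passed. S100A8 behaved in the same way, at 3.48 ± 1.05 (adjusted p = 0.0907) and 3.42 ± 1.05 (adjusted p = 0.0194), with values of 9.26, 10.13 and 11.14 at day 14 and 9.06, 10.33 and 10.96 later. Without R.21 or without R.20 no gene of the set was called in Tac.Mtx.F.

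With KY1005 alone the 2 arrays of KY1005.D14 had S100A9 at 7.76 (R.210) and 6.90 (R.212), inside the healthy range. In KY1005.F it was 12.17 (R.211), 9.86 (R.206) and 11.01 (R.212), all above it. S100A9 rose there by 4.38 ± 1.17 (adjusted p = 0.023) and S100A8, at 12.55, 10.60 and 11.67, by 4.35 ± 1.13 (adjusted p = 0.0194). Neither call held when any 1 of the 3 arrays was left out, and neither held within the batch that contains all KY1005 arrays and 7 healthy ones. In R.212, the animal with arrays in both groups, S100A8 went from 7.61 to 11.67.

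With KY1005 and sirolimus both genes rose at day 14. S100A9 was 9.64, 9.83, 9.87, 10.39 and 11.21 in KY1005.Siro.D14, all above the healthy animals, a rise of 3.55 ± 0.99 (adjusted p = 0.0245). S100A8 read 10.28, 10.50, 10.81, 10.93 and 11.45, a rise of 3.53 ± 0.96 (adjusted p = 0.0209). Within the KY1005 batch alone neither passed (adjusted p = 0.0964 for S100A9 and 0.0719 for S100A8). At day 28 S100A9 was 9.09, 9.43, 9.91 and 10.08 in 4 animals but 4.33 in R.219, and the difference of 1.93 ± 0.99 missed the threshold (adjusted p = 0.202). The last group, KY1005.Siro.F, held the widest spread, with 5.77 in R.217 and 12.02, 12.49 and 13.90 in R.220, R.221 and R.219. Its differences were 4.41 ± 1.06 (adjusted p = 0.00449) for S100A9 and 4.04 ± 1.03 (adjusted p = 0.00802) for S100A8, whose values were 6.18, 12.31, 12.81 and 13.91. The S100A9 calls were lost without R.220 in KY1005.Siro.D14 and without R.219 in KY1005.Siro.F, and the S100A8 call of KY1005.Siro.F without R.219 or R.221. Neither gene passed in KY1005.Siro.F within that batch (adjusted p = 0.0655 and 0.066).

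With sirolimus alone S100A9 was 8.05, 8.35, 8.49 and 11.31, with R.13 the single array above the healthy range, and its difference of 2.59 ± 0.96 in Siro.F missed the threshold (adjusted p = 0.0733). In Auto.D14 it was 7.56, 8.32 and 11.00 (2.23 ± 1.25, adjusted p = 0.195). In Auto.D36 it was 5.60, 8.68, 8.84 and 12.61 and rose by 3.00 ± 0.99 (adjusted p = 0.0399), a call that ended without R.62, without R.201 or without R.202, and with only the batches that hold these arrays (adjusted p = 0.0771). In that group 2 of the 20 other monocyte and macrophage genes tested rose, where 5.13% of all probe sets were called higher. They were CX3CR1 (2.38 ± 0.38) and CCR2 (1.55 ± 0.40). CX3CR1 did not follow the members in every group. It also rose in Auto.D100 (2.05 ± 0.40), where no member was called, and fell in Bela.Siro.F (-0.99 ± 0.31). The dendritic cell gene IRF8 rose in Auto.D36 by 1.02 ± 0.30. The mean of the monocyte and macrophage list was 1.32 in R.62 and 0.04 to 0.77 in the other 3 arrays of Auto.D36, and its part in the result was not tested. Auto.D100 was the single group with an S100A9 difference below 0, at -1.05 ± 1.04 (adjusted p = 0.675), from values of 4.11, 5.25, 6.38 and 6.59.

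**Figure D2:**
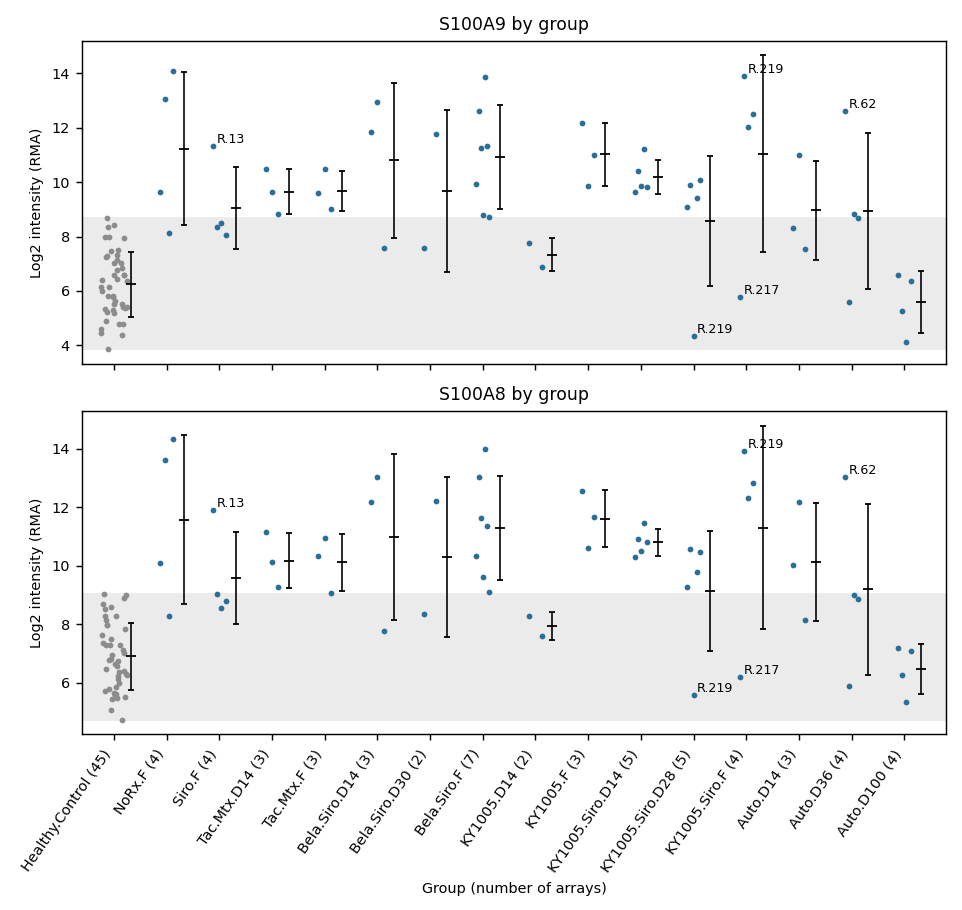
Deposited log2 intensity of S100A9 and S100A8 in each array (points) of the healthy animals and the 15 groups after transplant, with the group mean (dash), its SD (whisker) and the healthy range (grey band). All 7 arrays of Bela.Siro.F and all 5 of KY1005.Siro.D14 lie above the highest healthy array, while the 4 arrays of Auto.D100 lie inside the healthy range.

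S100A12, the third alarmin of the family and a ligand of the receptor RAGE, kept a low level in most samples. Its healthy mean was 3.50 ± 0.23 (SD, n = 45), with no healthy array above 3.98. It rose in KY1005.Siro.F by 2.59 ± 0.42 (adjusted p = 1.29e-05), at 3.19, 5.27, 5.73 and 9.62, and in no other comparison with healthy animals. High single arrays were seen elsewhere, with 5.82 in R.13 of Siro.F, 5.74 in R.66 of Bela.Siro.F, 5.32 in R.211 of KY1005.F and 5.20 in R.220 of KY1005.Siro.D14. In NoRx.F, where S100A8 and S100A9 were high, S100A12 was 3.57, 3.61, 3.79 and 4.32, so 3 of the 4 arrays lay inside its healthy range.

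Of the 9 secreted and surface genes of monocytes, FCN1 rose in 6 groups, VCAN in 2, CD14 and SIRPA in 1 each, and LYZ and CFP in none, while CD33 fell in 2 groups and SERPINA1 and LST1 in 1 each. FCN1, the secreted lectin ficolin-1, had a healthy mean of 5.29 ± 0.91 (SD, n = 45) and a highest healthy value of 7.75. It was 5.30, 6.90, 8.30 and 9.62 in NoRx.F (2.16 ± 0.80, adjusted p = 0.0329) and 6.89, 8.28 and 9.74 in Bela.Siro.D14 (2.98 ± 0.86, adjusted p = 0.0397). Both groups overlapped the healthy animals by at least 1 array. In KY1005.Siro.D14 it was 6.60, 6.85, 7.64, 8.45 and 10.19 (2.72 ± 0.79, adjusted p = 0.0314), and in KY1005.Siro.F 4.96, 9.14, 9.38 and 10.99 (3.38 ± 0.84, adjusted p = 0.00652). The 7 arrays of Bela.Siro.F ran from 5.87 to 9.73 with a median of 6.96 (2.12 ± 0.63, adjusted p = 0.0192), and those of Auto.D36 were 5.49, 6.29, 6.80 and 10.77 (2.33 ± 0.79, adjusted p = 0.0453).

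Each of these 6 FCN1 calls was lost without at least 1 array: without R.53, R.50 or R.52 in NoRx.F, R.38 or R.42 in Bela.Siro.D14, R.42, R.49 or R.66 in Bela.Siro.F, R.217 or R.221 in KY1005.Siro.D14, R.219 in KY1005.Siro.F, and R.62, R.201 or R.202 in Auto.D36. With only the batches that hold the groups, FCN1 no longer passed in KY1005.Siro.D14 (adjusted p = 0.108), KY1005.Siro.F and Auto.D36 (adjusted p = 0.0812). A second probe set of FCN1 was called in the same direction in none of the 7 comparisons in which the first was called, and in NoRx.F it was called lower, at -0.29 ± 0.11 (adjusted p = 0.0418), so the direction of FCN1 depends on the probe set.

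VCAN, which encodes versican, was higher than in healthy animals in 13 of 15 groups but rose in Bela.Siro.F and KY1005.Siro.F. Its values in Bela.Siro.F ran from 6.50 to 10.85 with a median of 7.56 (2.73 ± 0.74, adjusted p = 0.00858), against 5.69 ± 1.17 (SD, n = 45) in healthy animals, and this call held without each array in turn. In KY1005.Siro.F VCAN was 4.58, 9.90, 10.09 and 12.92 (3.57 ± 0.98, adjusted p = 0.0158), lost without R.219, R.220 or R.221. In Bela.Siro.D14 values of 6.51, 8.94 and 10.87 gave 3.28 ± 1.01 (adjusted p = 0.0548). Of 12 pairs of another VCAN probe set and a called comparison, 11 gave the same call.

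LYZ, the lysozyme gene, is among the most abundant monocyte transcripts, yet it passed the threshold in no group. Its largest differences were 2.58 ± 1.06 in Bela.Siro.D14 (adjusted p = 0.154), from 7.44, 10.10 and 12.41, and 2.19 ± 1.04 in KY1005.Siro.F (adjusted p = 0.182), from 5.70, 10.76, 10.98 and 11.66. In NoRx.F it was 5.90, 8.15, 11.48 and 11.88 (1.77 ± 0.98, adjusted p = 0.183), so 2 of 4 arrays lay above the highest healthy value of 9.96. Healthy LYZ levels had an SD of 1.31, the widest of the 31 genes, and the SE of its differences was correspondingly large. CFP, properdin of the complement system, moved little, with differences between -0.18 and 0.47.

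CD14 rose in KY1005.Siro.F by 1.56 ± 0.46 (adjusted p = 0.0266), at 5.57, 8.33, 8.56 and 9.94, where the R.217 value lay below and the other 3 above every healthy array (5.72 to 8.08). That call was lost without R.219, R.220 or R.221. In NoRx.F CD14 was 6.10, 6.22, 6.26 and 6.36, close to the healthy median of 6.42, although S100A8 and S100A9 were high in the same arrays. In Bela.Siro.F it ran from 6.70 to 8.76 with a median of 7.14, and it was higher there at an unadjusted p under 0.05 but not after adjustment. SIRPA, the receptor for CD47, rose in KY1005.Siro.F by 0.69 ± 0.22 (adjusted p = 0.0427), lost without R.219 or R.221.

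CD33, a sialic acid-binding receptor of myeloid cells, went the other way. Its difference from healthy animals was above 0 in 1 of 15 groups. The healthy mean was 6.83 ± 0.75 (SD, n = 45), with a lowest value of 5.74. It was 4.76, 5.19, 5.74 and 5.95 in NoRx.F (-1.44 ± 0.46, adjusted p = 0.0126) and 4.66, 4.97, 5.32 and 5.76 in Auto.D36 (-1.64 ± 0.46, adjusted p = 0.0133), with 3 of 4 arrays below every healthy one in each group. The first call was lost without R.53 and the second without R.200. The exception was KY1005.Siro.F, where CD33 was 5.50, 6.65, 7.84 and 7.98 and lowest in R.219, the array in which most other members were highest. SERPINA1, the gene of alpha-1 antitrypsin, fell in NoRx.F by 1.01 ± 0.32 (adjusted p = 0.0122), lost without R.53 or R.51. LST1, a gene of the MHC class III region, fell there by 1.06 ± 0.40 (adjusted p = 0.0376), lost without R.53, R.51 or R.52 and within the batches of the group (adjusted p = 0.0905). Without R.53 the 7 calls of NoRx.F were 3, S100A8, S100A9 and NCF4.

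Among the lysosomal and protease-related genes CSTA rose in 2 groups and CTSS in 1. CSTA, cystatin A, was 5.30 to 8.43 in Bela.Siro.F (1.42 ± 0.49, adjusted p = 0.0466, lost without R.42, R.49 or R.66) and 4.88, 7.45, 8.06 and 11.15 in KY1005.Siro.F (2.92 ± 0.65, adjusted p = 0.00199, lost without R.219). Healthy CSTA values ran from 3.72 to 6.58, and 3 arrays in each of the 2 groups lay above them. CTSS, cathepsin S, which trims the invariant chain of MHC class II, rose by 0.93 ± 0.24 in KY1005.Siro.F (adjusted p = 0.00964), lost without R.219. CD68, a lysosomal membrane protein of macrophages, passed in no group and lay below the healthy level in 10 of 15, since its difference was above 0 in 5.

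Of the 7 receptors for growth factors, microbial patterns and chemotactic peptides, 6 rose in KY1005.Siro.F. CSF3R, the receptor for granulocyte colony-stimulating factor, was 4.08, 6.90, 7.16 and 10.38 there (2.01 ± 0.41, adjusted p = 0.000673), against healthy values of 4.48 to 6.06. CSF1R, the receptor for macrophage colony-stimulating factor, passed in no group, with differences of at most 0.74. All 5 pattern and chemotactic receptors rose in KY1005.Siro.F: TLR2 by 2.30 ± 0.42, TLR4 by 2.04 ± 0.33, the formyl peptide receptor FPR1 by 2.06 ± 0.37, TREM1, which amplifies inflammatory signals, by 2.42 ± 0.38 and the C-type lectin CLEC4E by 1.81 ± 0.29 (adjusted p of at most 0.000115). For each of them R.220 and R.221 lay above every healthy array, R.219 was higher still, and R.217 was within or below the healthy range. In the other 14 groups none of these 5 receptors nor CSF3R passed, although TLR2 in Bela.Siro.D14, TLR2 and TLR4 in KY1005.Siro.D14, TLR4 in KY1005.Siro.D28 and CSF3R in Bela.Siro.F were higher at an unadjusted p under 0.05. Without R.219 TLR4, TREM1 and CLEC4E still passed, while TLR2, FPR1 and CSF3R did not (adjusted p of 0.0719, 0.0702 and 0.154).

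Both oxidase subunits were above the healthy mean in all 15 groups. NCF4, the p40 subunit that binds the cytosolic complex of the NADPH oxidase, rose in 5 of them. It was 10.14, 11.04, 11.37 and 11.40 in NoRx.F (1.68 ± 0.32, adjusted p = 1.74e-05) and 10.22, 10.27, 10.35 and 11.29 in Siro.F (1.28 ± 0.31, adjusted p = 0.00272), against a healthy mean of 9.19 ± 0.49 (SD, n = 45) and a highest value of 10.27. Thus 3 of 4 arrays lay above the healthy animals in both groups, and both calls held without each array in turn. NCF4 rose by 1.13 ± 0.25 in Bela.Siro.F (adjusted p = 0.00132), also without each array in turn, and by 1.34 ± 0.35 in Tac.Mtx.F (adjusted p = 0.0054). In Auto.D14 NCF4 stood at 9.76, 10.83 and 10.87 and the rise was 1.55 ± 0.40 (adjusted p = 0.00524), lost without R.201 or R.202, the 2 arrays with a high actin ratio. Without the 6 arrays of high actin ratio, which leaves 1 array in Auto.D14, no probe set was called in that group. All 6 pairs of the other NCF4 probe sets and a called comparison gave the same call.

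CYBB, the membrane subunit gp91-phox of that oxidase, rose in Auto.D36 by 2.05 ± 0.61 (adjusted p = 0.0209), at 6.36, 6.54, 6.76 and 9.47, and in KY1005.Siro.F by 2.22 ± 0.65 (adjusted p = 0.0248), at 4.58, 8.22, 8.26 and 9.95. Healthy CYBB values ran from 3.87 to 7.27. At an unadjusted p under 0.05 CYBB was also higher in NoRx.F and Auto.D14, where NCF4 was called, and NCF4 in KY1005.Siro.F. The Auto.D36 call of CYBB was lost without R.62 (the high array) and with only the batches of the group (adjusted p = 0.0516). Its KY1005.Siro.F call was lost without R.219, R.220 or R.221 and within the KY1005 batch alone. FGR, a Src family kinase of myeloid cells, passed in no group. CEBPD, a transcription factor induced in activated myeloid cells, did not pass against healthy animals and lay below them in 12 of 15 groups.

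IL1B, which encodes the inflammatory cytokine interleukin-1 beta, rose in KY1005.Siro.D14, the 1 of the 15 comparisons in which it passed, by 2.57 ± 0.53 (adjusted p = 0.00152). Its values were 6.18, 7.21, 8.10, 8.40 and 9.60, against 5.71 ± 0.57 (SD, n = 45) in healthy animals with a highest value of 7.53. So 3 of the 5 arrays lay above every healthy array, and the call held without each of the 5 arrays in turn, though not within the KY1005 batch alone. IL1B was 5.00, 5.31 and 6.63 in Bela.Siro.D14, 4.33, 5.56 and 7.45 in Tac.Mtx.D14 and 5.71, 5.92 and 6.59 in Auto.D14, none of them called. A single array of Bela.Siro.F, that of R.42, stood at 10.29, above a range of 5.73 to 6.40 in the other 6. In KY1005.Siro.D14 the list of other monocyte and macrophage genes had a mean of 0.30 to 1.63 above the healthy mean in the 5 arrays (healthy arrays -0.59 to 0.66), highest in R.217, which also had the highest IL1B. Their part in the result was not tested.

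Of the 4 granule and acute-phase genes MMP8 and CAMP rose in 2 groups each and MMP9 and ORM1 in 1. MMP8, the collagenase of neutrophil granules, was 5.34 (R.206), 6.93 (R.212) and 7.55 (R.211) in KY1005.F, against 3.42 ± 0.22 (SD, n = 45) in healthy animals with a highest value of 4.15. All 3 arrays lay above every healthy array, the rise was 3.17 ± 0.49 (adjusted p = 5.21e-05), and it was the only call of that group that held without each array in turn (adjusted p of at most 0.013). It did not pass within the KY1005 batch alone. In KY1005.D14 MMP8 was 3.64 and 4.22, in KY1005.Siro.D14 3.30 to 4.06 and in KY1005.Siro.D28 3.63 to 4.66. In KY1005.Siro.F it was 3.31, 3.98 and 4.30 in R.217, R.220 and R.221 but 9.78 in R.219 (1.91 ± 0.45, adjusted p = 0.0033, and 0.43 without R.219, adjusted p = 0.452).

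MMP9, another granule enzyme, and ORM1, an acute-phase glycoprotein, rose in KY1005.Siro.F alone of the 15 groups, which by itself does not test one group against another. MMP9 was 4.67, 8.20, 9.19 and 11.14 (3.43 ± 0.50, adjusted p = 1.83e-06) and ORM1 3.68, 7.80, 8.79 and 10.99 (3.85 ± 0.51, adjusted p = 2.4e-07), against healthy maxima of 5.86 and 4.38. Both calls held without each array in turn and, as the only 2 of the 20, within the KY1005 batch alone (adjusted p = 0.0301 and 0.037). R.211 of KY1005.F had ORM1 at 8.57 and MMP9 at 8.16, and its 2 companions had 4.43 and 4.13 for ORM1. CAMP rose in Bela.Siro.F, where it ran from 6.26 to 10.86 with a median of 7.09 (1.59 ± 0.52, adjusted p = 0.036, lost without R.42, R.66 or R.67), and in KY1005.Siro.F at 5.46, 9.88, 10.55 and 12.42 (2.98 ± 0.70, adjusted p = 0.00324, lost without R.219). Healthy CAMP values ran from 5.33 to 8.03, so 3 of the 4 arrays of KY1005.Siro.F lay above them.

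**Figure D3:**
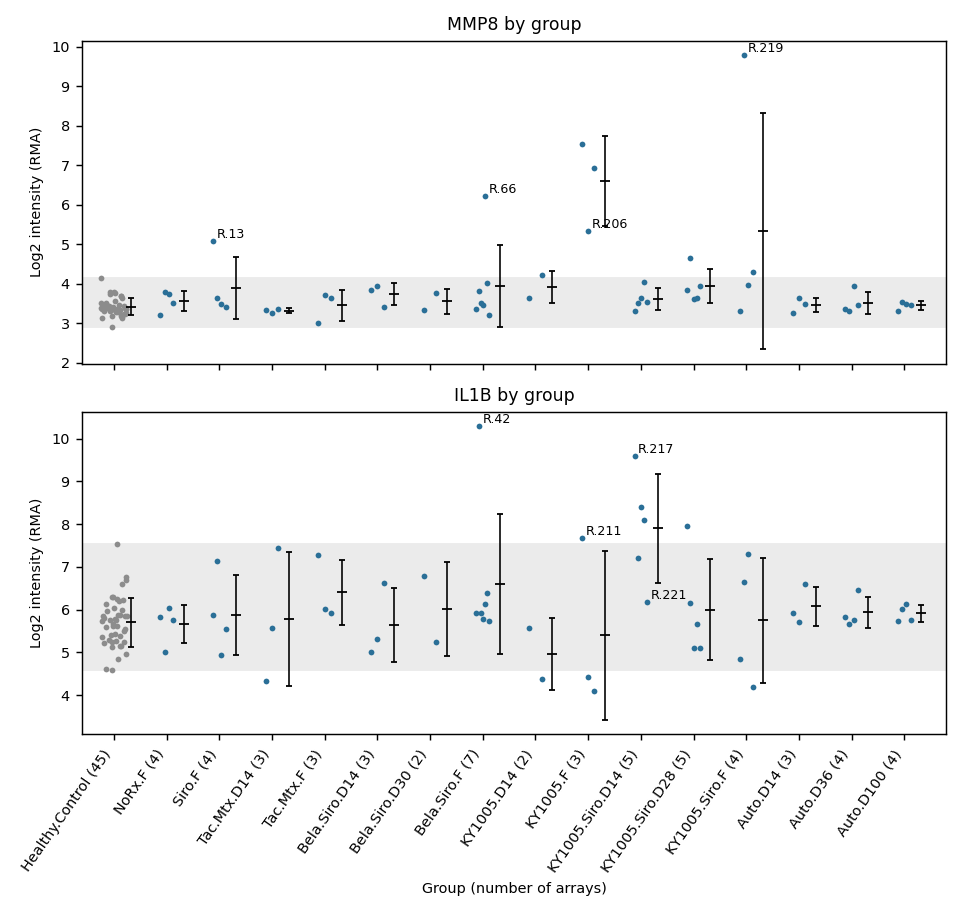
Deposited log2 intensity of MMP8 and IL1B in each array (points) of the healthy animals and the 15 groups after transplant, with the group mean (dash), its SD (whisker) and the healthy range (grey band). The 3 arrays of KY1005.F lie above every healthy array for MMP8, and 3 of 5 arrays of KY1005.Siro.D14 do so for IL1B.

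KY1005.Siro.F, near day 100, had the most calls of the 15 groups, 20 of the 49 rises against healthy animals, and it was made up of unlike animals. The mean of the 31 genes relative to healthy animals was 4.19 in R.219, 2.10 in R.221, 2.00 in R.220 and -0.49 in R.217, where healthy animals ran from -0.66 to 0.88. Thus 3 animals lay far above the healthy range and 1 inside it. The 8 largest rises were those of S100A9, S100A8, ORM1, VCAN, MMP9, FCN1, CAMP and CSTA, from 4.41 down to 2.92, and the other 12 lay between 0.69 (SIRPA) and 2.59 (S100A12). For 12 of the 20 genes this was the single call among the 15 comparisons with healthy animals. Without R.219 the count fell from 20 to 6, namely CLEC4E, MMP9, ORM1, S100A12, TLR4 and TREM1, and without R.217 it was 28. Within the KY1005 batch alone, which has 7 healthy arrays, the differences were the same and the SEs larger, and 2 genes passed.

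Other cells' genes moved in the same arrays. The mean of the other monocyte and macrophage genes was 2.69 in R.219, 1.04 in R.220, 1.02 in R.221 and -0.67 in R.217, and that of other granulocyte genes 1.47, 0.43, 0.51 and -0.06. For the 8 granulocyte genes tested the median difference in this group was 0.045, and 2 were called higher. R.219 also had the lowest core T cell mean (-0.68) and the highest mean of B cell genes (1.02) in the group, and an actin ratio of 1.51 beside 0.31 to 0.64 in the other 3. The mean of erythroid genes was 0.69 in R.219, 0.93 in R.220, 2.42 in R.221 and 1.42 in R.217, so it did not follow the members across the 4 arrays. SLC25A37, a mitochondrial iron transporter, and ALAS2, the erythroid enzyme of heme synthesis, rose in KY1005.Siro.F by 2.49 ± 0.37 and 1.97 ± 0.55. Their part in the result was not tested.

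Over time, recipients of KY1005 with sirolimus showed no called change from day 14 to day 28 and rises from either day to the last group. From KY1005.Siro.D14 to KY1005.Siro.D28 limma called none of the 31 genes, where 0% of all probe sets were called higher and 0.00946% lower, and at an unadjusted p under 0.05 it gave 0 higher and 6 lower genes, among them FCN1, LYZ, CYBB and IL1B. The median difference of the 31 genes was -0.48. IL1B was lower at day 28 than at day 14 in each of the 5 animals, going from 9.60 to 7.95, 7.21 to 6.15, 8.40 to 5.10, 8.10 to 5.66 and 6.18 to 5.09 (R.217 to R.221 in order), and its difference of -1.91 ± 0.57 missed the threshold (adjusted p = 0.36).

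From day 28 to KY1005.Siro.F 12 genes rose and none fell, where 1.64% of all probe sets were called higher and 0.205% lower. The largest of these rises were those of ORM1 (3.37 ± 0.55), CAMP (2.78 ± 0.74), CSTA (2.52 ± 0.70), MMP9 (2.42 ± 0.53), CEBPD (2.39 ± 0.66), FPR1 (2.18 ± 0.40), S100A12 (2.15 ± 0.45) and TREM1 (1.97 ± 0.41), with adjusted p of at most 0.035. From day 14 to KY1005.Siro.F 9 genes rose and none fell, where 1.01% were called higher and 0.24% lower, led by ORM1 (3.61 ± 0.55), MMP9 (2.82 ± 0.53) and TREM1 (1.81 ± 0.41). IL1B differed by -2.15 ± 0.61 and missed the threshold (adjusted p = 0.0501). S100A9 differed by 0.86 ± 1.14 from day 14 and by 2.48 ± 1.14 from day 28, neither called.

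These time courses rest on few arrays. With the animal as a fixed replicate block on the KY1005.Siro arrays alone, both counts went from 9 and 12 to 0, with differences between 0.92 and 1.06 times those without the block and larger SEs. Without R.219 in KY1005.Siro.F the count from day 28 was 0 and that from day 14 was 1, and without R.217 they were 23 and 14. Leaving out R.219 at day 14 gave 4 genes from day 14. In R.219 itself S100A9 went from 9.87 to 4.33 and 13.90, in R.220 from 11.21 to 9.43 and 12.02, in R.221 from 9.83 to 10.08 and 12.49, and in R.217 from 9.64 to 9.09 and 5.77.

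**Figure D4:**
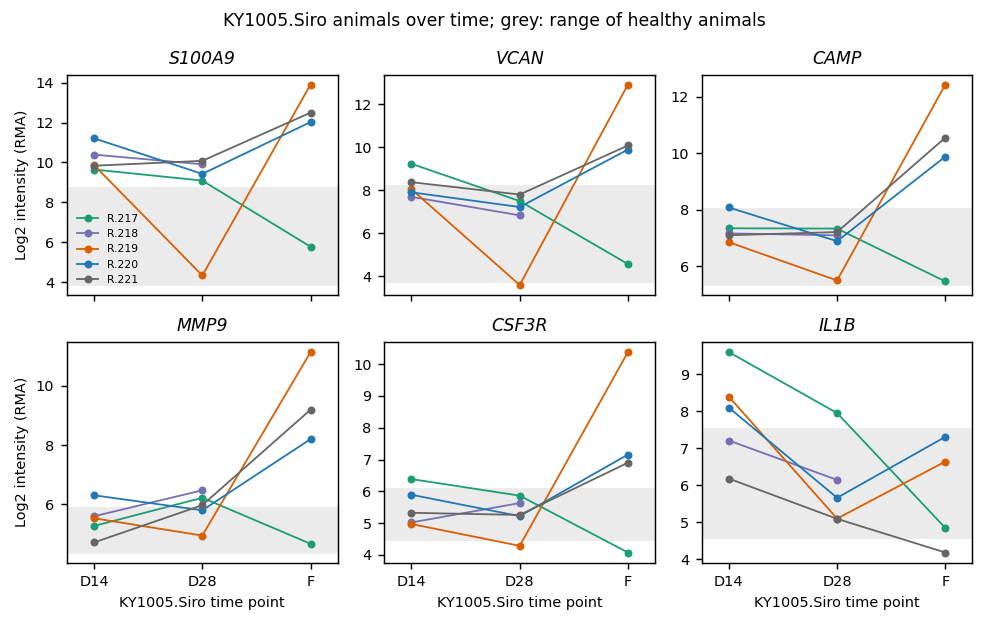
Deposited log2 intensity of members by animal (lines) in KY1005.Siro.D14, KY1005.Siro.D28 and KY1005.Siro.F, with the range of healthy animals shaded in grey. S100A9 ends above the healthy range in R.219, R.220 and R.221 and inside it in R.217, and IL1B is lower at day 28 than at day 14 in all 5 animals.

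Autologous recipients at day 100 serve as a transplant without donor cells at about the same time. Against Auto.D100 18 of the 31 genes were higher in KY1005.Siro.F and none lower, where 3.82% of all probe sets were called higher and 3.36% lower. The 8 largest differences were S100A9 (5.46 ± 1.49), VCAN (4.86 ± 1.38), S100A8 (4.61 ± 1.44), FCN1 (4.07 ± 1.18), ORM1 (3.98 ± 0.72), MMP9 (3.78 ± 0.70), CAMP (3.64 ± 0.97) and CSTA (3.34 ± 0.91), with adjusted p of at most 0.0357. For S100A9 the 4 values of KY1005.Siro.F were 5.77, 12.02, 12.49 and 13.90 and those of Auto.D100 4.11, 5.25, 6.38 and 6.59, so R.217 overlapped the autologous group. The groups share no batch. The count was 5 without R.219 and 0 when only these 2 groups were fitted.

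Between other regimens few members differed. Against Auto.D14, 1 gene was higher in KY1005.Siro.D14, IL1B by 2.51 ± 0.85 (adjusted p = 0.0488), where 4.75% of all probe sets were called higher and 4.13% lower. That call was lost without R.201 or R.202 of Auto.D14, without R.217, R.219 or R.220 of KY1005.Siro.D14, and without a batch term. These groups share no batch, and the call was also lost with only their batches fitted. KY1005.F had MMP8 higher than NoRx.F by 3.03 ± 0.65 (adjusted p = 0.00132) and NCF4 lower by 1.47 ± 0.49 (adjusted p = 0.0459), with 4.67% and 4.07% of all probe sets called higher and lower. For MMP8 the values of NoRx.F were 3.22, 3.51, 3.73 and 3.80, below all 3 of KY1005.F. MMP8 passed the low-value filter only with these 3 arrays of KY1005.F, so its call is not independent of the filter. The 2 groups share no batch, so they were compared through the healthy arrays of each batch. The MMP8 call held without each of the 7 arrays and when only the batches of either group were fitted. NCF4 was 9.42, 9.43 and 10.10 in KY1005.F, below the lowest value of NoRx.F (10.14). Its call was lost without R.206 or R.212 of KY1005.F, without R.50, R.51 or R.52 of NoRx.F, and with only those batches fitted.

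No member passed between KY1005.F and Siro.F, which share no batch (0% of all probe sets called higher and 0.00946% lower). At an unadjusted p under 0.05 limma gave 3 higher and 1 lower. Without R.13 of Siro.F 1 gene passed. Between Siro.F and NoRx.F none passed either (3.08% and 3.38%), with LST1 higher at an unadjusted p under 0.05. S100A9 differed by 1.78 ± 1.51 between KY1005.F and Siro.F (adjusted p = 0.59) and by -0.36 ± 1.54 between KY1005.F and NoRx.F (adjusted p = 0.911), intervals that leave room for differences in either direction.

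Within the other regimens no member changed past the threshold over time. From Tac.Mtx.D14 to Tac.Mtx.F none passed (0% and 0.00631% of all probe sets), and at an unadjusted p under 0.05 limma gave none. From Bela.Siro.D14 to Bela.Siro.F none passed (0.00315% and 0%), with CD68 higher and SERPINA1 lower at an unadjusted p under 0.05. S100A9 differed by 0.04 ± 1.38 and 0.13 ± 1.17 over these intervals. From Auto.D14 to Auto.D100 none passed (5.56% and 1.78%), with CTSS higher and S100A8, S100A9 and NCF4 lower at an unadjusted p under 0.05. S100A9 differed by -3.29 ± 1.31 at day 100 (adjusted p = 0.106). With the animal as a random block 1 gene passed in that comparison, and 4 did without R.200 of Auto.D14.

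The animals that gave both a healthy array and arrays after transplant let each be read against its own level. There were 18 such arrays after transplant from 11 animals. Most were autologous, with R.200, R.201 and R.202 each in Auto.D14, Auto.D36 and Auto.D100, so the arrays are not independent. None came from the Tac.Mtx or KY1005.Siro groups or KY1005.D14. The counts below have no share over all probe sets beside them and are not a test. S100A9 was above the animal's own healthy value in 12 of the 18, with a median of 1.99 and a range from -4.58 to 5.91. NCF4 was above it in 17 of 18, by up to 1.96, and CD33 in 2 of 18, with a median of -1.38. R.62 went from 6.84 when healthy to 12.61 at day 30 in Auto.D36, the largest S100A9 value of the autologous arrays. At day 100 S100A9 was 4.11 in R.202, whose healthy value was 8.69, and 5.25 in R.200, whose healthy value was 8.42, and these were among the highest healthy values. In the other 2 animals of Auto.D100 it was 6.59 in R.60 (healthy 5.78) and 6.38 in R.201 (healthy 6.57).

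Genes of other cells were counted beside the members, from lists that were chosen with earlier results of these data known. Of 30 other monocyte and macrophage genes 20 were tested, and of 20 other granulocyte genes 8. In healthy animals 9 of 24 measured genes of the first list and 7 of 12 of the second had a mean under 5.21, among them ITGAM, MARCO, ELANE and MPO. In KY1005.Siro.F 9 of the 20 rose and 1 fell, where 4.58% of all probe sets were called higher and 2.26% lower. Among them were THBS1 at 3.77 ± 0.81, PLBD1 at 3.32 ± 0.77, TNFAIP6 at 2.33 ± 0.41 and IL10 at -1.20 ± 0.38. Of the 8 granulocyte genes tested 2 rose there. CD177, a neutrophil surface protein, rose by 2.94 ± 0.46 and PADI4, an enzyme of neutrophil extracellular traps, by 1.92 ± 0.30. The median difference of the 8 genes was 0.045. In Bela.Siro.F PLBD1, C5AR1, LILRB4 and NLRP3 rose and CX3CR1 fell, where 5.23% of all probe sets were called higher and 4.77% lower.

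In KY1005.F 1 of the 8 granulocyte genes tested, CD177, rose by 1.78 ± 0.50 (adjusted p = 0.0338) beside MMP8, and of the monocyte list none passed. There 1.72% of all probe sets were called higher and 1.56% lower. The B cell gene MS4A1 and the platelet gene PF4 fell in the same group, with differences of -2.12 ± 0.61 and -3.35 ± 0.98. In NoRx.F, where S100A8 and S100A9 were high, IL10 was the 1 gene called of the 20 monocyte and macrophage genes and OLFM4 the 1 of the 8 granulocyte genes. In that group 13.5% of all probe sets were called higher and 14% lower, so neither list exceeds that share. Of 11 dendritic cell genes listed 4 were tested, and their mean was 0.62 to 0.79 in the 4 arrays of NoRx.F, above the healthy maximum of 0.39. IRF8 was higher by 2.52 ± 0.30 and BATF3 by 0.47 ± 0.18. The median difference of the 4 genes was 0.25, so the mean rests largely on IRF8. Of the 7 B cell genes CD79B rose, which is close to the share of all probe sets called higher there. Of the 6 plasma cell genes MZB1 and XBP1 rose, and of the 7 NK cell genes GNLY and NKG7 rose while KLRF1 and NCR3 fell. Of the 9 core T cell genes CD8A rose and TRAT1 and CD5 fell in that group. In KY1005.Siro.D14 NLRP3 and PLAUR and the dendritic cell gene BATF3 rose, where 1.57% of all probe sets were called higher and 2.57% lower. MS4A1, the plasma cell gene JCHAIN and PF4 fell there, with differences of -1.76 ± 0.52, -1.27 ± 0.37 and -2.80 ± 0.83. Of the 9 core T cell genes CD8A and CD5 fell in KY1005.Siro.F, with differences of -0.64 ± 0.17 and -0.55 ± 0.17. The group means of the core T cell list lay between -0.29 (Auto.D14) and 0.18 (KY1005.Siro.D28). What part these cells have in the members' levels was not tested.

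**Figure D5:**
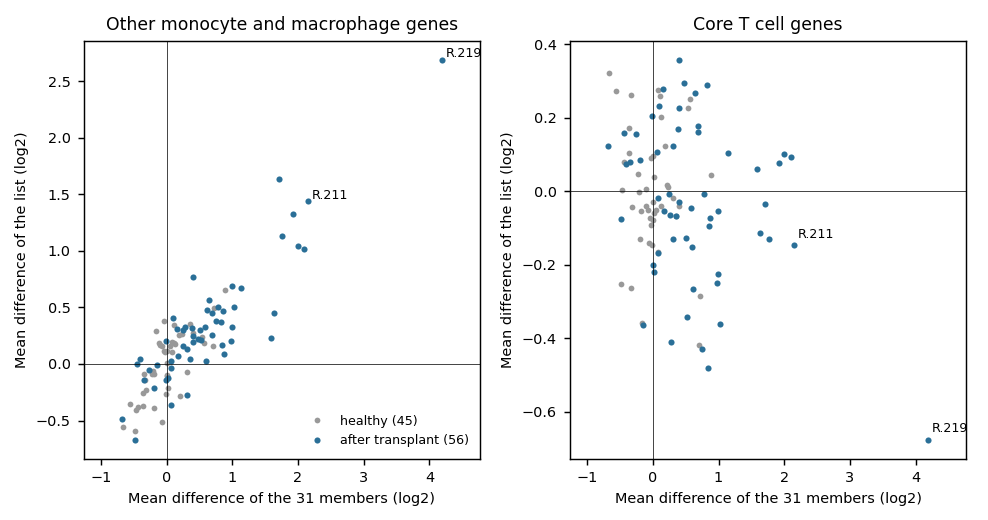
Mean of the 31 genes in each array, relative to the healthy mean (log2, horizontal axis), and the mean of the other monocyte and macrophage genes and of the core T cell genes in the same array (log2, vertical axes), with healthy arrays in grey and arrays after transplant in blue. R.219 of KY1005.Siro.F has the highest member mean (4.19) with the highest mean of other monocyte and macrophage genes (2.69) and the lowest core T cell mean (-0.68).

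Where a gene had further probe sets, they were set against the one used. Over 52 pairs of another probe set and a called comparison 31 gave the same call, 20 were not called and 1, that of FCN1 in NoRx.F, was called the opposite way. IL1B had the same call in 3 of 4 pairs, CTSS in 4 of 6, TLR4 in 2 of 3, CYBB in 2 of 4, SIRPA in 2 of 6 and SERPINA1 in 1 of 4. The remaining pairs of these genes were not called.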

How the data were processed

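RNA of sorted T cells had been labelled with a 3' in vitro transcription kit and hybridised to the arrays, per the labels. The deposited values are log2 intensities, for which the submitters' processing notes name affy and RMA (versions not given in the sources used here). No depth exists for arrays, so their number limits the precision. Of 102 arrays from 66 animals, the 2 healthy arrays of R.201 were averaged, which left 101. The table holds 52865 probe sets, of which 24969 are paired with 1 gene symbol, 361 with several and 27535 with none, and 99 control probe sets were left out. Symbols of all 58 member probe sets matched the RefSeq table through their Entrez ID, and 0 changed.

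Groups came from the labels. With limma 3.58.1 in R 4.3.3, 1 model of all 16 groups and the labelled batch was fitted to 31710 probe sets with 5.21 or more in at least 3 arrays (degrees of freedom 80 for the residuals and 3.38 for the prior). Each p was adjusted by the Benjamini-Hochberg method over all of them at 0.05. A gene was read from its probe set with the highest mean. Among healthy arrays 0.274% of probe sets had a batch p under 0.05 and 24.9% one above 0.95, as in values already adjusted for batch, and an effect of such an adjustment on the fits was not tested. The 7 healthy animals are the only other arrays in the batch of the KY1005 groups. Nothing beyond the animal numbers says how the samples were collected, so p values measure the spread between animals and arrays together.

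Arrays with the same number come from 1 animal. Over 51 pairs of arrays of 1 animal the median correlation of residuals was 0.183, in the 13 pairs of KY1005 with sirolimus it ran from -0.29 to 0.44, and the consensus correlation was 0.11, and fits with the animal as a replicate block were run as alternatives. Correlations in healthy animals used 100000 resamples (scipy 1.17.1, two-sided), over 30 relations. The fit was tested on simulated data before use.

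The members and lists were chosen with earlier results of these data known. At most 8 called members were named per comparison, by size. Array values were set for 12 genes: S100A8, S100A9, S100A12, FCN1, VCAN, LYZ, CD14, CSF3R, IL1B, CAMP, MMP8 and MMP9. Those of the other members, such as NCF4, CD33 and ORM1, were added after their values were seen. The alternatives changed the batch term, the arrays fitted, the filter, the variance prior, array weights, normalization, the probe set rule, the animal block and each array in turn, and left out arrays of high actin ratio.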

Additional observations from a re-analysis of the deposited data

Results flagged for a closer look

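In 104 sets of 4 to 10 arrays, 13 measures in 8 groups, 14 held an array far from the others by Dixon's test. Chance gives about 1 in 20 for independent sets. These measures vary together, so 1 array can give several flags and the count cannot be set against that rate. In Siro.F the array of R.13 stood out for S100A8 (11.9, the others 8.56 to 9.02), S100A9 (11.3) and MMP8 (5.07, the others 3.41 to 3.64), and that of R.16 was low for CD14 (5.81). In KY1005.Siro.D28 the array of R.219 was low for S100A8 (5.58), S100A9 (4.33), VCAN (3.60) and CAMP (5.49). The same animal was high for MMP8 in KY1005.Siro.F (9.78), where R.217 was low for LYZ (5.70).

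In Bela.Siro.F the array of R.66 was high for S100A12 (5.74), MMP8 (6.23) and MMP9 (8.83), and that of R.42 for IL1B (10.3). Calls that end without these arrays are named beside them in the report.

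For 3 genes every array of KY1005.D14 (2 arrays) lay on one side of the healthy mean and every array of KY1005.F (3 arrays) on the other. The group means differed by 0.99 for S100A12, 2.47 for CAMP and 1.80 for MMP9, KY1005.F minus KY1005.D14. These differences were not tested.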

How the results depend on the processing

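None of the 95 member calls over the 26 comparisons changed direction in any alternative that was run. All 95 stayed past the threshold with a trended prior, 94 without the batch term, 94 with both arrays of R.201, 93 with the animal as a random replicate block, 92 after a further quantile normalization, 91 with the mean of a gene's probe sets and 86 with array weights. With no low-value filter 82 did, without arrays of high actin ratio 79, with only the groups compared 54, and with only the batches that hold them 38. The 21 time-course calls of KY1005 with sirolimus were all lost with the animal as a fixed replicate block, where the counts were 0 (from 9) from KY1005.Siro.D14 to KY1005.Siro.F and 0 (from 12) from KY1005.Siro.D28. The random block gave 1 (from 0) for Auto.D100 against Auto.D14, and no block moved another count by over 1.5 times.

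Counts of called members moved further as follows, against healthy animals unless a second group is named. With array weights they were 1 (from 0) in Auto.D100, 3 (from 1) in Auto.D14, 2 (from 4) in Auto.D36, 1 (from 0) in KY1005.D14, 9 (from 3; 4 higher and 5 lower) in KY1005.F, 2 (from 0) in Tac.Mtx.D14, 5 (from 3) in Tac.Mtx.F, 5 (from 0) for Auto.D100 against Auto.D14, 2 (from 1) between KY1005.Siro.D14 and Auto.D14 and 20 (from 12) for KY1005.Siro.F against KY1005.Siro.D28. Further quantile normalization gave 2 (from 1) in Auto.D14 and 5 (from 3) in KY1005.F. The filter at 10 arrays gave 1 (from 2) for KY1005.F against NoRx.F, since it removes MMP8, and the mean of probe sets gave 2 (from 1) in Auto.D14.

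Without the batch term the counts were 2 (from 1) in Auto.D14, 5 (from 3) in Bela.Siro.D14, 11 (from 7) in Bela.Siro.F, 1 (from 0) in KY1005.D14, 9 (from 3) in KY1005.F, 7 (from 4) in KY1005.Siro.D14, 2 (from 0) in KY1005.Siro.D28, 3 (from 1) in Siro.F, 1 (from 0) for KY1005.F against Siro.F and 0 (from 1) between KY1005.Siro.D14 and Auto.D14. With no filter they were 2 (from 4) in Auto.D36, 1 (from 2) for KY1005.F against NoRx.F and 0 (from 1) between KY1005.Siro.D14 and Auto.D14. Among all probe sets, those called without the batch term numbered, in the order given, 4611, 763, 4488, 381, 2367, 2195, 3886, 4068, 55 and 0. With no filter they numbered 2396, 2934 and 1650.

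With only the batches that hold the groups they were 4 (from 1) in Auto.D14, 1 (from 4) in Auto.D36, 6 (from 3) in Bela.Siro.D14, 11 (from 7) in Bela.Siro.F, 0 (from 3) in KY1005.F, 0 (from 4) in KY1005.Siro.D14, 2 (from 20) in KY1005.Siro.F, 1 (from 0) in Tac.Mtx.D14, 1 (from 0) for Auto.D100 against Auto.D14, 1 (from 2) for KY1005.F against NoRx.F, and 0 between KY1005.Siro.D14 and Auto.D14 (from 1), between KY1005.Siro.D14 and KY1005.Siro.F (from 9) and between KY1005.Siro.D28 and KY1005.Siro.F (from 12). With only the groups compared they were 2 (from 1) in Auto.D14, 7 (from 4) in Auto.D36, 6 (from 3) in Bela.Siro.D14, 3 (from 0) in Bela.Siro.D30, 12 (from 7) in Bela.Siro.F, 8 (from 3) in KY1005.F, 10 (from 4) in KY1005.Siro.D14, 5 (from 0) in KY1005.Siro.D28, 3 (from 1) in Siro.F, 2 (from 0) in Tac.Mtx.D14, and 0 in the same 3 comparisons and for KY1005.Siro.F against Auto.D100 (from 18). Without arrays of high actin ratio they were 0 (from 1) in Auto.D14, 1 (from 4) in Auto.D36, 5 (from 3) in Bela.Siro.D14, 1 (from 3) in KY1005.F, 2 (from 4) in KY1005.Siro.D14, 1 (from 2) for KY1005.F against NoRx.F and 0 (from 1) between KY1005.Siro.D14 and Auto.D14. Of all probe sets, those called with only the batches numbered, in the order given, 7657, 2123, 760, 3171, 180, 439, 211, 228, 3132, 1401, 987, 0 and 0. With only the groups they numbered 4559, 2761, 825, 465, 3037, 898, 1198, 3403, 2503, 472, 55, 0, 0 and 1107. Without arrays of high actin ratio they numbered 2198 in Auto.D36, 1382 in Bela.Siro.D14, 145 in KY1005.F and 943 in KY1005.Siro.D14. The causes were not tested.

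Leaving out 1 array at a time, the counts ran from 6 to 28 in KY1005.Siro.F, 3 to 8 in NoRx.F, 0 to 3 in Tac.Mtx.F, 0 to 6 in Bela.Siro.D14, 4 to 9 in Bela.Siro.F, 1 to 2 in KY1005.F, 3 to 4 in KY1005.Siro.D14, 0 to 1 in KY1005.Siro.D28, 0 to 3 in Auto.D14, 1 to 4 in Auto.D36, 1 to 14 between KY1005.Siro.D14 and KY1005.Siro.F, 0 to 23 between KY1005.Siro.D28 and KY1005.Siro.F, 5 to 23 between Auto.D100 and KY1005.Siro.F, 1 to 2 for KY1005.F against NoRx.F, 0 to 1 against Siro.F, 0 to 4 for Auto.D100 against Auto.D14 and 0 to 1 between KY1005.Siro.D14 and Auto.D14. These ranges count members alone, while the calls over all probe sets moved too. For example, 483 probe sets were called in KY1005.Siro.F without R.219 and 8122 in NoRx.F without R.53. Where this leaves 1 array in a group, it is assumed to vary like the others. Signal limits 10 of the 31 genes, whose healthy mean lies under the median of all values.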
